A study of Vitis vinifera with 16 samples.

Results

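The results concern 5 genes of grape (Vitis vinifera) that code for seed storage proteins. They are cruciferin CRU1 (LOC100246409), legumin A (LOC100241281), the gene described as vicilin-like antimicrobial peptides 2-3 (LOC100852645), basic 7S globulin (LOC100240860) and 2S albumin (LOC100252101). They were picked by gene identifier from the 13411 genes of the deposited table, and all 5 were among the 12637 genes tested. Muscat Hamburg ovules (MH) and Zhongpu No. 18 ovules (ZP) were collected at day 35, 45, 55 or 61 after flowering, with 2 libraries for each of the 8 groups and 16 libraries in all. All groups were total RNA from ovules frozen with the skin kept on, and the labels give no treatment or transgene. The series addresses lignin formation in the ovules of grapes with seeds and of stenospermocarpic grapes, whose seeds are fertilised and then stop growing. The labels do not say which variety is the seedless one; Muscat Hamburg is known as a seeded table grape. Nor do they say whether a group's libraries are from different plants, so the spread behind each p-value is that between these particular libraries and may be technical.

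Seed storage proteins are made in bulk in the embryo and endosperm as a seed fills, enter the secretory pathway, and are packed into protein storage vacuoles until germination. Legumin A and CRU1 belong to the 11S globulins, whose precursors are folded in the endoplasmic reticulum and cut in the vacuole by vacuolar processing enzyme. Vicilins are 7S globulins. Basic 7S globulin is a seed protein of the aspartyl protease fold, related to the gamma conglutin of lupin. The 2S albumins are small, sulfur-rich proteins held together by disulfide bonds. In Arabidopsis the genes for 11S globulins and 2S albumins are switched on in the maturing embryo by the B3 factors ABI3 and FUS3, the NF-YB factors of the LEC1 type and bZIP factors.

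Levels below are FPKM (fragments mapped to a gene, scaled by its length and by library size), so they can be set against each other between genes. The steps between low values placed the depth of the libraries at 2.00e+07 to 3.00e+07 fragments, where 1 fragment in a 1 kb transcript was worth 0.0333 to 0.0499 FPKM. Of all genes called in the mean variety comparison 69.5% were higher in ZP, and 53.2% after median-ratio scaling of the libraries; for MH from day 35 to 45 these splits were 19.5% and 49.1%, and for ZP from day 55 to 61 they were 29.3% and 44.4%. The median of all tested genes was 0.58 higher in ZP on the log2(FPKM + 1) scale in the mean comparison, and 0.10 higher after that scaling.

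For these 5 genes the replicate 2 libraries of ZP stood apart from the replicate 1 libraries. Replicates of a group were close over all genes, with a median SD of 0.0493 to 0.156 in log2(FPKM + 1). In every ZP group replicate 2 held more of all 5 transcripts than replicate 1. The gap ran from 1.70-fold for legumin A at day 55 to 951-fold for the same gene at day 35, where replicate 1 rests on 1 fragment; for 2S albumin at day 35 replicate 1 was listed at 0. In MH the 2 libraries of a group were within 1.26-fold of each other for the 4 globulin genes. Replicate differences over all tested genes were correlated between the days of a variety, with r of 0.408 to 0.728 in all 6 pairs of MH groups and of 0.0765 to 0.270 in the 6 pairs of ZP groups. Fits with the replicate number as a block within each variety, added after the values had been seen, are therefore given where they change a call; what the numbers stand for is not in the labels. Differences of the 5 genes that rest on the ZP libraries are therefore given with and without replicate 2. Without it each ZP group is 1 library, and the spread is taken from the MH groups.

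CRU1, an 11S globulin, was among the most abundant transcripts of every MH library. Its level was 31196 and 26086 FPKM in MH at day 35, 62075 and 61507 at day 45, 58266 and 54673 at day 55, and 58988 and 61994 at day 61. It ranked first or second among all genes in each of them. In ZP it was listed at 0.0589 and 32.0 FPKM at day 35, 0.173 and 44.4 at day 45, 0.163 and 75.0 at day 55, and 50.8 and 223 at day 61. The first 3 values of replicate 1 rest on about 3, 8 and 7 fragments. The lowest MH library was thus far above the highest ZP library, and ZP replicate 1 was near the detection limit until day 55.

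Legumin A, the other 11S globulin, stood below CRU1 in every MH library. It was at 17542 and 13972 FPKM at day 35, 41781 and 40397 at day 45, 31889 and 29148 at day 55, and 32525 and 34287 at day 61. In ZP it was the member with the highest level in both libraries of day 61. The ZP values were 0.0191 and 18.2 FPKM at day 35, 5.83 and 28.9 at day 45, 65.0 and 111 at day 55, and 652 and 1473 at day 61. The day 35 value of replicate 1 is a single fragment. At day 61 it ranked 54 among all genes in replicate 1 and 17 in replicate 2.

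The vicilin-like gene had its lowest MH level at the first day and its highest at the last. Its MH levels were 734 and 646 FPKM at day 35, 13103 and 13682 at day 45, 13017 and 12034 at day 55, and 20798 and 24046 at day 61. Both day 61 libraries lay above all earlier ones. In ZP it was at 0.352 and 6.66 FPKM at day 35, 3.70 and 18.9 at day 45, 4.73 and 27.7 at day 55, and 102 and 202 at day 61. It was the member with the highest level in ZP replicate 1 at day 35.

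Basic 7S globulin had the lowest MH start of the 5 genes. It stood at 277 and 238 FPKM at day 35, 14196 and 13753 at day 45, 22241 and 19813 at day 55, and 19615 and 19395 at day 61. Between the first and the second sampled day it moved from rank 158 and 174 to rank 6 in both libraries. In ZP it was at 0.0498 and 11.2 FPKM at day 35, 0.0731 and 11.1 at day 45, 0.118 and 24.5 at day 55, and 19.8 and 45.9 at day 61. At the fitted gene length the first 3 values of replicate 1 are about 3, 4 and 6 fragments. It was the lowest of the 5 genes in both ZP libraries of day 61.

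The 2S albumin gene held the highest value of the set, 101706 FPKM in replicate 1 of MH at day 45. Its MH levels were 21812 and 15127 FPKM at day 35, 101706 and 42123 at day 45, 78596 and 33655 at day 55, and 61799 and 28258 at day 61. In ZP it was listed at 0 and 19.0 FPKM at day 35, 1.79 and 19.5 at day 45, 15.3 and 112 at day 55, and 322 and 1020.0 at day 61. A listed 0 in ZP replicate 1 at day 35 allows up to 3 fragments, or 0.139 FPKM. This limit, like the fragment numbers above, covers counting error only.

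The 2 libraries of an MH group differed more for this gene than for the other 4. Replicate 1 was 1.44, 2.41, 2.34 and 2.19 times replicate 2 at days 35, 45, 55 and 61. The gene is the shortest of the 5, with a span of 734 bases against 2033 to 2524 for the others. Short genes leaned the same way in these libraries. Over genes under 800 bases the median ratio of replicate 1 to replicate 2 was 1.02 at day 35, 1.55 at day 45, 1.47 at day 55 and 1.33 at day 61. Over genes of 3200 bases or more it was 0.927, 0.834, 0.818 and 0.887. The part of gene length in the spread of 2S albumin was not tested. From day 45 on the order of CRU1 and 2S albumin in MH differed between the libraries: 2S albumin led in replicate 1 and CRU1 in replicate 2.

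**Figure D1:**
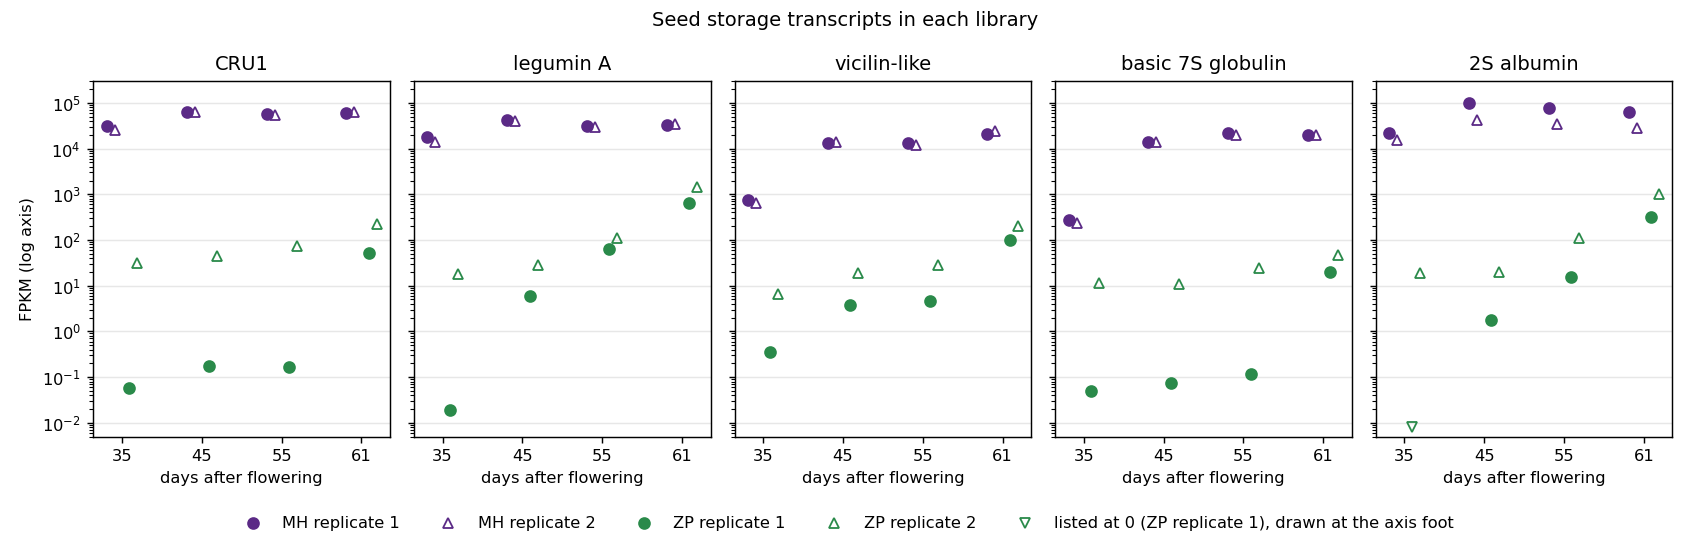
FPKM of the 5 storage genes in each of the 16 libraries (log axis) against days after flowering; purple marks MH, green marks ZP, filled circles are replicate 1, open triangles replicate 2, and the downward triangle at the axis foot a value listed at 0. MH lies above ZP for all 5 genes on all 4 days, and the ZP replicates lie closer together at day 61 than at day 35.

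Together the 5 transcripts made up a large part of the MH libraries. They held 18.1% and 15.2% of the summed FPKM at day 35, 44.1% and 39.5% at day 45, 39.8% and 35.2% at day 55, and 36.7% in both libraries of day 61. In ZP they held 0.000136% and 0.0248% at day 35, 0.00331% and 0.0352% at day 45, 0.0267% and 0.0993% at day 55, and 0.331% and 0.831% at day 61. FPKM is scaled by library size, which includes these genes. Leaving them out of it moved the median variety difference of all tested genes from 0.58 to 0.45.

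The make-up of the sum changed over time in MH. The vicilin-like gene held 1.03% and 1.15% of it at day 35 and 10.7% and 14.3% at day 61. Basic 7S globulin held 0.387% and 0.425% at day 35 and 10.1% and 11.5% at day 61. CRU1 held the largest part at day 35, with 43.6% and 46.5%. In ZP at day 61 legumin A held 56.9% and 49.7% of the sum and 2S albumin 28.1% and 34.4%, while CRU1 held 4.43% and 7.54%.

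**Figure D2:**
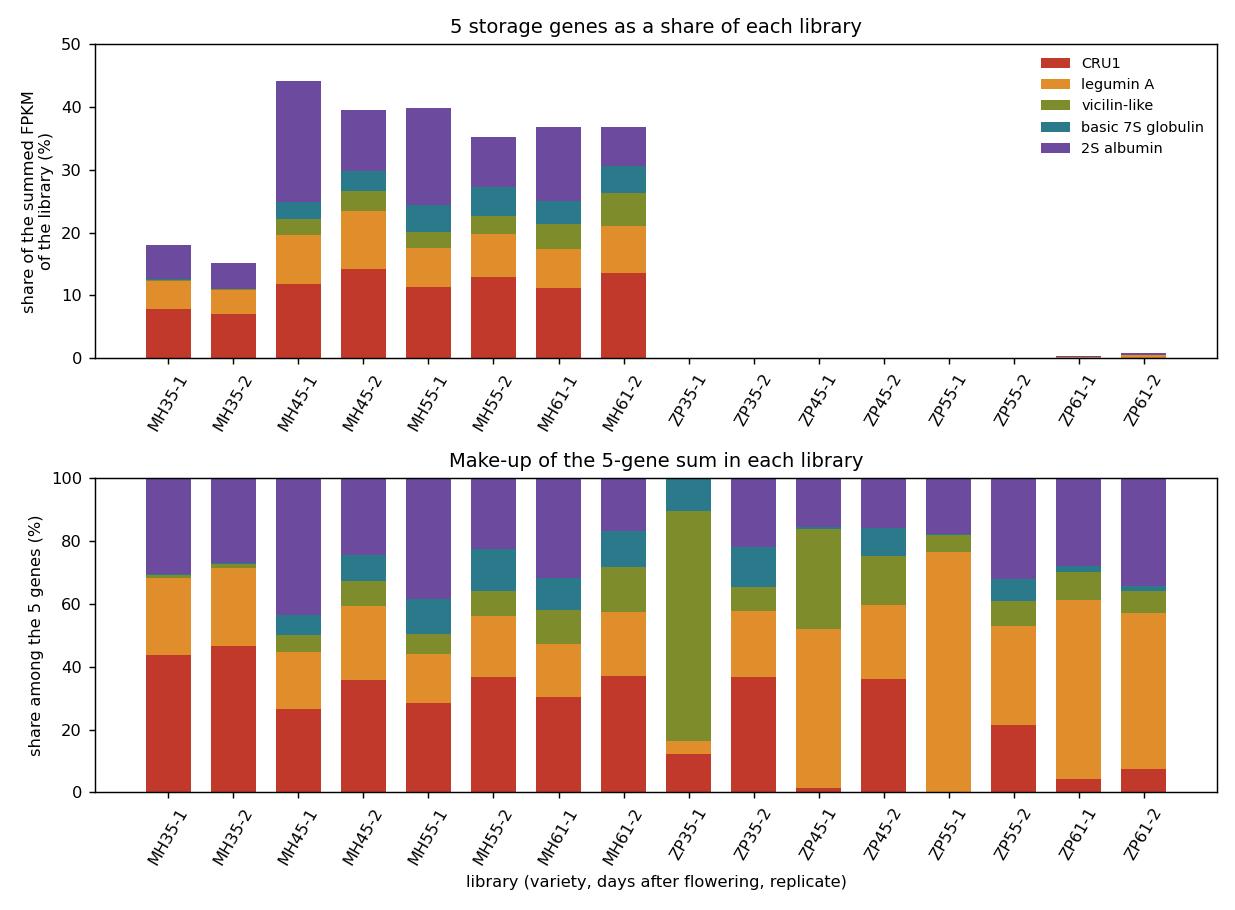
Upper panel, the 5 storage genes stacked as a percentage of the summed FPKM of each library; lower panel, each gene as a percentage of the 5-gene sum. The MH libraries reach 44.1% at day 45 and the ZP libraries stay under 0.9%; legumin A fills the largest part of both ZP libraries of day 61.

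All 5 genes were lower in ZP than in MH on each day and in the mean of the days, in limma fits over all tested genes with Benjamini-Hochberg adjustment. The share of all tested genes called lower was 31.1%, 19.1%, 21.3% and 19.2% on days 35, 45, 55 and 61, and 27% in the mean. Under median-ratio scaling all 5 genes were again lower in each of these comparisons. There 4656, 4707, 4784 and 4642 of the 12637 tested genes were lower on these days, and 5325 in the mean. In the mean of the 4 days the differences in log2(FPKM + 1) were -11.74 ± 0.96 (SE) for CRU1, -10.37 ± 0.65 for 2S albumin, -9.83 ± 0.68 for basic 7S globulin, -9.21 ± 0.49 for legumin A and -8.85 ± 0.41 for the vicilin-like gene. The highest of these adjusted p-values was 4.39e-08. The 8 libraries of each variety did not overlap for any of the 5 genes, and how many of all tested genes share this was not counted. In whole ovules fewer cells that express a gene and less RNA per cell cannot be told apart. Without ZP replicate 2 the mean differences were larger in size, from -9.83 for the vicilin-like gene to -14.04 for CRU1, with adjusted p-values up to 5.91e-07, where 23.8% of all tested genes were called lower; the lone ZP libraries were then assumed to vary like the MH groups.

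The size of the variety difference was not the same on each day. At day 35 it was smallest for basic 7S globulin (-6.17 ± 1.36) and the vicilin-like gene (-7.74 ± 0.83), whose MH levels were still low, against -11.79 ± 0.99 to -12.24 ± 1.92 for the others. At day 45 all 5 lay between -10.43 ± 0.83 (vicilin-like) and -13.08 ± 1.29 (2S albumin). By day 61 it was -5.09 ± 0.99 for legumin A, -6.18 ± 1.29 for 2S albumin, -7.27 ± 0.83 for the vicilin-like gene, -9.13 ± 1.92 for CRU1 and -9.29 ± 1.36 for basic 7S globulin. Of the daily differences the highest adjusted p was 0.000993, for basic 7S globulin at day 35. All 5 genes were again lower on each day without ZP replicate 2, where 25.7%, 14.7%, 16.3% and 14.7% of all tested genes were; their highest adjusted p was 0.000346, for 2S albumin at day 61. In levels, the second ZP library of day 61 held 4.30% of the legumin A, 3.61% of the 2S albumin, 0.840% of the vicilin-like, 0.360% of the CRU1 and 0.236% of the basic 7S globulin found in the second MH library of that day. Between the first libraries of that day the shares were lower, from 0.0862% for CRU1 to 2.01% for legumin A. There 2S albumin stood at 322 FPKM in ZP against 61799 in MH.

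The test of whether the variety difference changed over the days, an F-test of 3 interaction terms, passed for 3 of the 5 genes, where 78.9% of all tested genes passed. They were legumin A (adjusted p = 0.00207), 2S albumin (0.0170) and basic 7S globulin (0.0400). The vicilin-like gene missed the threshold (0.0546), as did CRU1 (0.513). With the block within each variety all 5 passed, with adjusted p-values up to 0.00429, against 87.7% of all tested genes. The fit without ZP replicate 2 has 1 library in each ZP group, so its interaction test is not given. Single libraries decided 2 of the 3 calls of the main fit. Basic 7S globulin missed the threshold in 12 of the 16 fits that left out a library, with adjusted p from 0.0502 to 0.162. It kept the call without replicate 1 of ZP at day 35 or 55 and without replicate 2 of ZP at day 45 or 55. 2S albumin missed it without replicate 2 of MH at day 61 (0.0697) or replicate 2 of ZP at day 61 (0.0811).

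Between day 35 and day 45 of MH, 2 of the 5 genes rose, beside 10.2% of all tested genes. Basic 7S globulin rose by 5.76 ± 1.36 (adjusted p = 0.00297) and the vicilin-like gene by 4.28 ± 0.83 (adjusted p = 0.000699), which is 54.2-fold and 19.4-fold on that scale. The differences of 2S albumin (1.85 ± 1.29), legumin A (1.39 ± 0.99) and CRU1 (1.12 ± 1.92) were not called, although both libraries of day 45 lay above both of day 35 for each of them. These standard errors carry the spread of the ZP replicates, because the fit shares a gene's variance over the groups. In a fit of the MH libraries alone, added after the values had been seen, legumin A also rose (SE 0.42, adjusted p = 0.0354), while 7.82% of all tested genes rose. CRU1 (adjusted p = 0.122) and 2S albumin (0.0928) did not pass there. Without ZP replicate 2, 4 of the 5 genes rose, beside 7.79% of all tested genes, and 2S albumin had an adjusted p of 0.0573. With the block 4 of the 5 genes rose as well, beside 12.6% of all tested genes; these included legumin A (adjusted p = 0.0490) and 2S albumin (0.00206), but not CRU1 (0.141). The median of all tested genes was -0.28 over this interval.

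After day 45 no member changed in MH by the test, between days 45 and 55 or between days 55 and 61, where 14.1% and 23.6% of all tested genes were called in either direction. At an unadjusted p under 0.05 there were also 0. The largest difference was that of the vicilin-like gene from day 55 to 61, 0.84 ± 0.83 (adjusted p = 0.547). In the fit of the MH libraries alone its adjusted p was 0.0886, and without ZP replicate 2 it was 0.0163; these fits called 12.1% and 12.7% of all tested genes. The block gave it an adjusted p of 0.0264, with 35.4% of all tested genes called. Basic 7S globulin differed by 0.59 ± 1.36 from day 45 to 55; its adjusted p was 0.235 in MH alone and 0.0491 without ZP replicate 2, where 7.12% and 7.32% of all tested genes were called. With the block no member passed from day 45 to 55, against 23.2% of all tested genes. Legumin A was lower in both libraries of day 55 than in those of day 45, with a difference of -0.43 ± 0.99.

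In ZP the last interval held the calls of the fit over all libraries. From day 55 to 61, 3 of the 5 genes rose, beside 9.19% of all tested genes. 2S albumin rose by 3.74 ± 1.29 (adjusted p = 0.0427), legumin A by 3.52 ± 0.99 (adjusted p = 0.0157) and the vicilin-like gene by 3.50 ± 0.83 (adjusted p = 0.00560). For these 3 both libraries of day 61 lay above both of day 55. CRU1 differed by 3.52 ± 1.92 (adjusted p = 0.195) and basic 7S globulin by 2.55 ± 1.36 (0.184), with overlapping libraries, as replicate 2 of day 55 was above replicate 1 of day 61 for both. In a fit of the ZP libraries alone the vicilin-like gene passed (adjusted p = 0.0471), beside 11.4% of all tested genes, and legumin A (0.0808) and 2S albumin (0.122) did not. Leaving out replicate 1 of day 55 or replicate 2 of day 61 ended the call for legumin A (adjusted p = 0.0975 and 0.118) and for the vicilin-like gene (0.0786 and 0.0559). For 2S albumin 7 of the 16 leave-outs ended it, namely each library of MH at days 35 and 61, replicate 1 of ZP at day 55 and each library of ZP at day 61, with adjusted p from 0.0509 to 0.314. Leaving out replicate 2 of ZP at day 55 alone, with 1 library left for that day, moved the difference to 6.53 for CRU1 and 4.80 for basic 7S globulin. All 5 rose without ZP replicate 2, from 3.31 for legumin A to 5.48 for CRU1, beside 4.19% of all tested genes. They also all rose with the block, beside 13.3% of all tested genes, with adjusted p-values up to 0.00165.

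In that fit the earlier steps in ZP were not called for any member, against 55.2% and 32% of all tested genes called in either direction from day 35 to 45 and from day 45 to 55. Legumin A came nearest from day 45 to 55, at 2.59 ± 0.99 (unadjusted p = 0.0219, adjusted p = 0.0648), and its libraries of the 2 days did not overlap. No other member had an unadjusted p under 0.05 in these steps. Without ZP replicate 2 legumin A rose in both steps, by 2.74 (adjusted p = 0.000494) and by 3.27 (adjusted p = 0.000467), and the vicilin-like gene rose in the first, by 1.80 (adjusted p = 0.00104). Of all tested genes 20.1% and 8.26% rose in these steps. With the block legumin A rose in both steps (adjusted p = 0.0195 and 0.00284), the vicilin-like gene in the first (0.000199) and 2S albumin in the second (0.000443), beside 35.8% and 19.1% of all tested genes. CRU1 and basic 7S globulin stayed under 0.2 FPKM in replicate 1 through day 55.

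**Figure D3:**
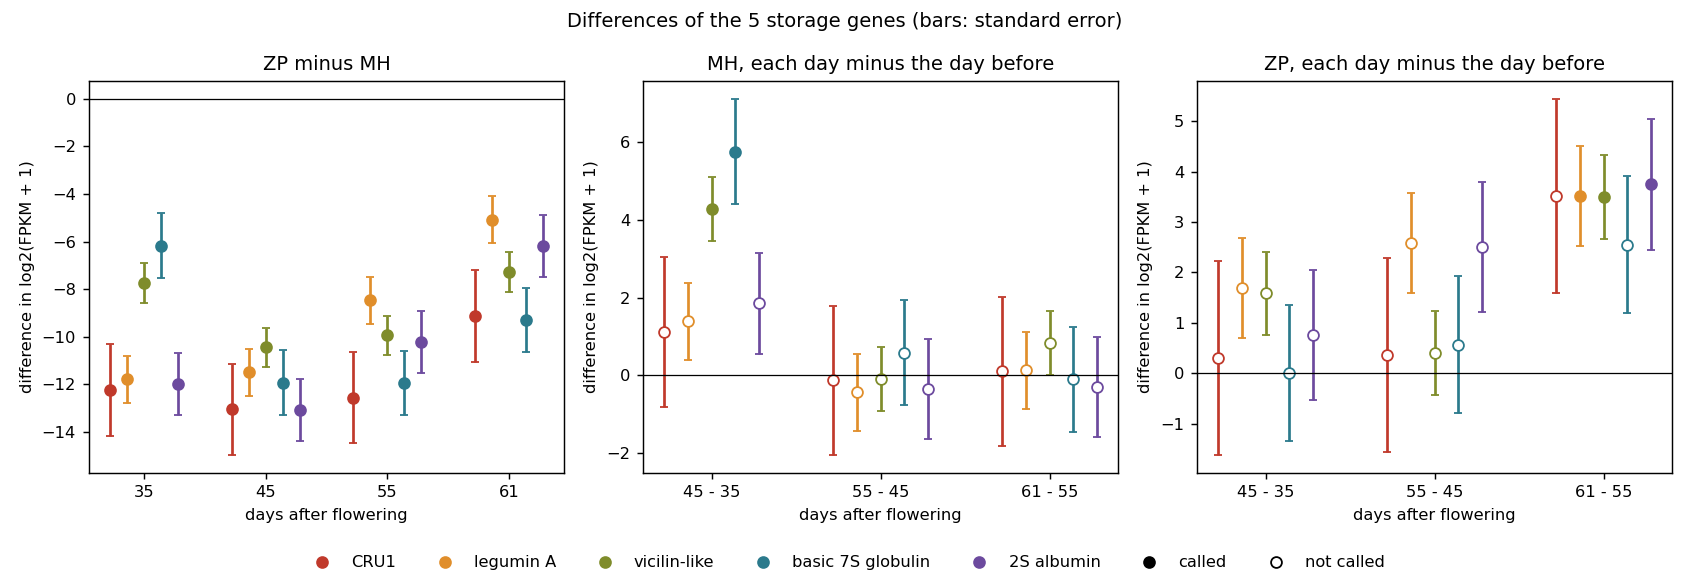
Differences in log2(FPKM + 1) of the 5 storage genes between the varieties on each day (left) and between successive days in MH (middle) and ZP (right); bars are standard errors, filled points were called at an adjusted p under 0.05. All points of the left panel are filled and below 0; basic 7S globulin and the vicilin-like gene are filled in the first MH step, and legumin A, 2S albumin and the vicilin-like gene in the last ZP step.

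The replicate 2 library of ZP at day 35 carried the 5 transcripts in nearly fixed proportion to one MH library. Its levels were 0.0586% of those in MH day 55 replicate 2 for CRU1, 0.0623% for legumin A, 0.0554% for the vicilin-like gene, 0.0565% for basic 7S globulin and 0.0563% for 2S albumin. The highest of these shares was 1.13 times the lowest, the narrowest range against any of the 8 MH libraries. Against MH replicate 2 of its own day the range was 38.3-fold. Another 7 genes were at 1000 FPKM or more in that MH library and under 1 FPKM in ZP replicate 1 of day 35. In ZP replicate 2 these 7 were at 0.0496% to 0.111% of the MH level, with a median of 0.0539%. They were picked for low values in replicate 1, so they do not serve to compare the replicates. At day 45 the narrowest range for ZP replicate 2 was against MH day 61 replicate 2, with shares of 0.0571% to 0.0844%. At days 55 and 61 the shares were less even, at 2.24-fold and 10.9-fold at the narrowest. What sets replicate 2 apart was not tested.

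**Figure D4:**
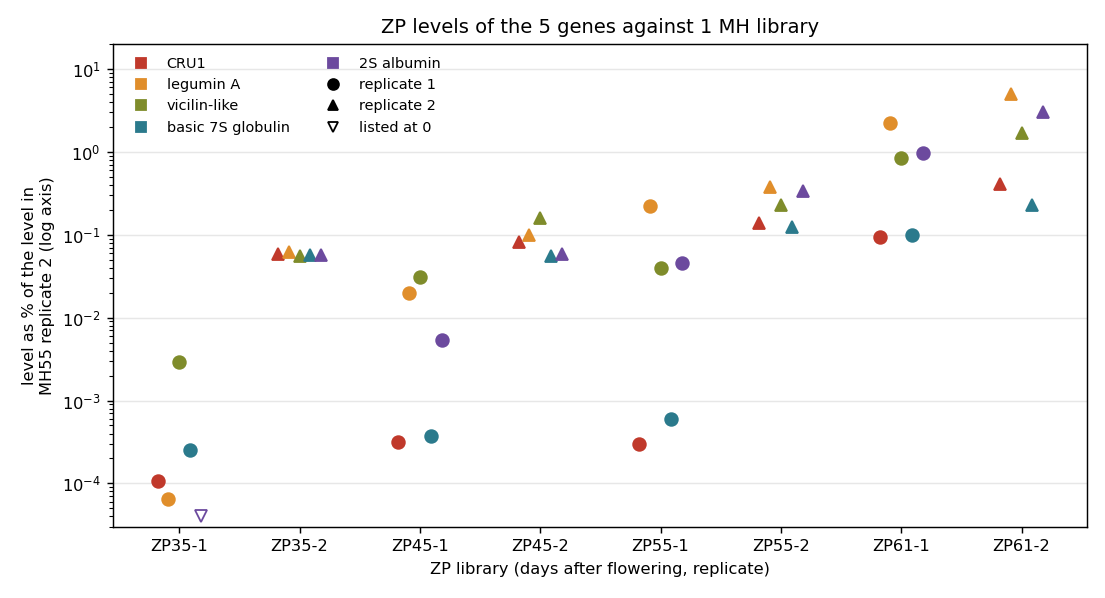
Level of each storage gene in each ZP library as a percentage of its level in replicate 2 of MH at day 55 (log axis); circles are replicate 1 and triangles replicate 2. The 5 triangles of ZP day 35 fall together between 0.0554% and 0.0623%, and the replicate 1 points of the same day do not.

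The pair of 11S globulins kept a narrow ratio in MH and not in ZP. Legumin A was 0.533 to 0.673 of the CRU1 level in all 8 MH libraries. In ZP replicate 1 the ratio was 33.7 at day 45, 398 at day 55 and 12.8 at day 61, and at day 35 both genes had too few fragments for a ratio. In ZP replicate 2 it was 0.567, 0.652, 1.47 and 6.59 from day 35 to day 61. Both ZP libraries of day 61 thus held several times more legumin A than CRU1, where each MH library held less. This ratio was singled out after the values had been seen, so no test is given.

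The positions in the table match the RefSeq annotation of assembly ASM3070453v1, in which all 5 are protein-coding genes on the minus strand. CRU1 (chr7:6658898-6660930) and legumin A (chr7:6653634-6655702) are neighbours, 3195 bases apart. A second gene described as legumin A (LOC100253171) lies 1999 bases from legumin A on its other side, on the plus strand. The vicilin-like gene is at chr7:1396688-1399211, basic 7S globulin at chr14:3309105-3311151 and 2S albumin at chr19:5917560-5918293. The sources used here do not give how reads shared by close copies were assigned or whether strand was used in counting, so the split of reads between related copies is uncertain.

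Neighbours did not all share the variety difference. LOC100253171 was at 59.2 to 796 FPKM in MH and at most 3.54 in ZP (-7.89 ± 0.11 in the mean of days, adjusted p = 1.95e-15). A 2S sulfur-rich seed storage protein gene (LOC104877584), 8274 bases from 2S albumin, was at 214 to 677 FPKM in MH and 0 to 23.1 in ZP (-7.24 ± 0.24, adjusted p = 3.25e-12). An unnamed gene 176 bases from the vicilin-like gene (LOC100853754) was at 290 to 1084 FPKM in MH and 0.0155 to 23.6 in ZP (-7.47 ± 0.14, adjusted p = 1.42e-14). The basic 7S globulin-like gene 2579 bases from basic 7S globulin (LOC100247787) was higher in ZP in the mean of days, by 0.71 ± 0.06 (adjusted p = 1.14e-07). Its levels were low, at 0.318 to 1.15 FPKM in MH and 0.509 to 8.51 in ZP. The direction changed over time: its difference was 2.43 at day 35, 0.83 at day 45, -0.08 at day 55 and -0.35 at day 61. On the other flank of 2S albumin a SUI1-like translation factor (LOC100245122) was higher in ZP by 0.31 ± 0.06 (adjusted p = 0.000316), but lower under median-ratio scaling (-0.42 ± 0.06).

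Of 15 other genes described as storage proteins, 5 were lower and 9 higher in ZP in the mean of days. Of all tested genes 61.6% were called higher and 27% lower. The median of the list was 0.21 against 0.58 over all tested genes. Under median-ratio scaling 7 of the list were lower and 7 higher, beside 5325 lower and 6065 higher of the 12637 tested genes. The 3 with the highest mean FPKM over all 16 libraries were among the lower ones. These 3 qualified through their MH levels, so their direction is no separate support. They are LOC100253171 and LOC104877584, given above, and a vicilin-like seed storage protein gene (LOC100253668), which stood at 235 to 1292 FPKM in MH and 0.482 to 9.78 in ZP (-7.77 ± 0.11, adjusted p = 1.95e-15). The summed level of the list was 914 to 3054 FPKM over the MH libraries and 176 to 226 over the ZP libraries. Genes described as storage proteins thus differed in direction under each scaling tried.

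In a list of 20 genes picked by regulator names in their descriptions 13 were lower and 5 higher in ZP, with a median of -1.78. Of all tested genes 27% were lower and 61.6% higher. Under median-ratio scaling 15 of the list were lower and 4 higher, beside 5325 lower and 6065 higher of the 12637 tested genes. The list also took in DOG1 and DOG1-like genes, all lower in ZP, from -4.33 to -0.89. Its counts and median therefore do not stand for the B3, NF-YB and bZIP factors alone. ABI3 (LOC100854233), a B3 factor of embryo maturation, was at 155 to 250 FPKM in MH. In ZP it was at 0.621 and 0.610 FPKM at day 35, 6.37 and 5.23 at day 45, 5.48 and 5.35 at day 55, and 8.73 and 17.5 at day 61 (-5.24 ± 0.11, adjusted p = 4.62e-14). The ZP libraries of a day lay close together for ABI3 until day 55. In MH day 55 replicate 2 ABI3 stood at 238 FPKM and CRU1 at 54673. A replicate gap of the same share of MH would hardly show for ABI3, so this closeness does not set it apart from the storage genes. Nuclear factor Y subunit B-6 (LOC100855401), of the LEC1 type, was at 175 to 654 FPKM in MH and 1.58 to 59.6 in ZP (-4.73 ± 0.18, adjusted p = 1.45e-11). A gene for bZIP transcription factor 53 (LOC100244279), a partner in storage gene activation in Arabidopsis, was higher in ZP by 1.04 ± 0.09 (adjusted p = 7.85e-08). FUS3 (LOC100244687), named after its values were seen, was at 35.4 and 35.3 FPKM at day 35 of MH, 3.92 to 8.65 later in MH, and at most 4.23 in ZP. Its libraries of the varieties overlapped at day 61, at 4.99 and 3.92 FPKM in MH and 2.41 and 4.23 in ZP. A FUS3-like gene (LOC100855410) stayed at 21.1 to 39.1 FPKM in MH through day 55. It was at 8.60 and 8.54 in MH at day 61 and at 0.266 to 2.95 in ZP.

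Of 18 genes for the folding, sorting and cleavage of storage proteins 6 were lower and 5 higher in ZP, with a median of -0.0047. Of all tested genes 27% were lower and 61.6% higher. Under median-ratio scaling 13 of the list were lower and 5 higher, with a median of -0.70. In that setting 5325 of the 12637 tested genes were lower and 6065 higher, with a median of 0.10. A vacuolar-processing enzyme gene (LOC100251259) stood at 1.72 to 46.3 FPKM in MH and at 3536 and 3525 in ZP at day 35, against 53.1 and 53.7 at day 61 of ZP (4.76 ± 0.08 in the mean, adjusted p = 1.01e-14). A second one (LOC100244137) was higher by 1.32 ± 0.05 (adjusted p = 2.83e-11). Calreticulin (LOC100256319), a chaperone of the endoplasmic reticulum, differed by -0.23 ± 0.10 (adjusted p = 0.0412), and its day 61 difference changed direction under median-ratio scaling.

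Markers of the parts of the ovule differed between the varieties, and their part in the storage gene results was not tested. Their counts stand beside 61.6% higher and 27% lower over all tested genes. Of 6 embryo markers 3 were higher and 2 lower in ZP, with summed levels of 16.1 to 97.6 FPKM in MH and 89.9 to 209 in ZP. Of its 3 most abundant genes, somatic embryogenesis receptor kinase 1 (LOC100261805) was higher in ZP by 3.05 ± 0.05 (adjusted p = 7.22e-15) and WUSCHEL-related homeobox 8 (LOC100251229) by 1.72 ± 0.07 (adjusted p = 1.21e-11). The receptor kinase made up most of the ZP sum, at 70.3 to 182 FPKM in ZP and 10.1 to 23.6 in MH. The ZP sum thus largely follows 1 gene and does not stand for the list. The third, WUSCHEL-related homeobox 2 (LOC100263784), an early embryo gene in Arabidopsis, was at 61.0 and 51.0 FPKM in MH at day 35 and under 2 FPKM in all other libraries (-0.95 ± 0.10, adjusted p = 4.52e-07). Of 9 endosperm markers 6 were higher and 2 lower, with sums of 69.5 to 101 FPKM in MH and 106 to 214 in ZP. Under median-ratio scaling 3 of these markers were higher and 5 lower, beside 6065 higher and 5325 lower of the 12637 tested genes. Of 13 ovule and seed coat markers 12 were higher and 1 lower, with sums of 532 to 941 FPKM in MH and 784 to 1135 in ZP. The lower one was anthocyanidin reductase (ANR), an enzyme of proanthocyanidin synthesis, at 306 to 759 FPKM over the 16 libraries (-0.21 ± 0.06, adjusted p = 0.00560); leucoanthocyanidin reductase 1 (LAR1) was higher by 1.59 ± 0.07 (adjusted p = 9.70e-11). Of 55 tested pericarp and skin markers 44 were higher and 8 lower, with sums over all 58 of 3387 to 5235 FPKM in MH and 2332 to 6185 in ZP. An anthocyanidin glucosyltransferase of the pericarp list (LOC100254753) was at 0 in all MH libraries. A DOG1-like gene of the regulator list (LOC100251914) was at 0 in all ZP libraries. Both were named after their values were seen.

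**Figure D5:**
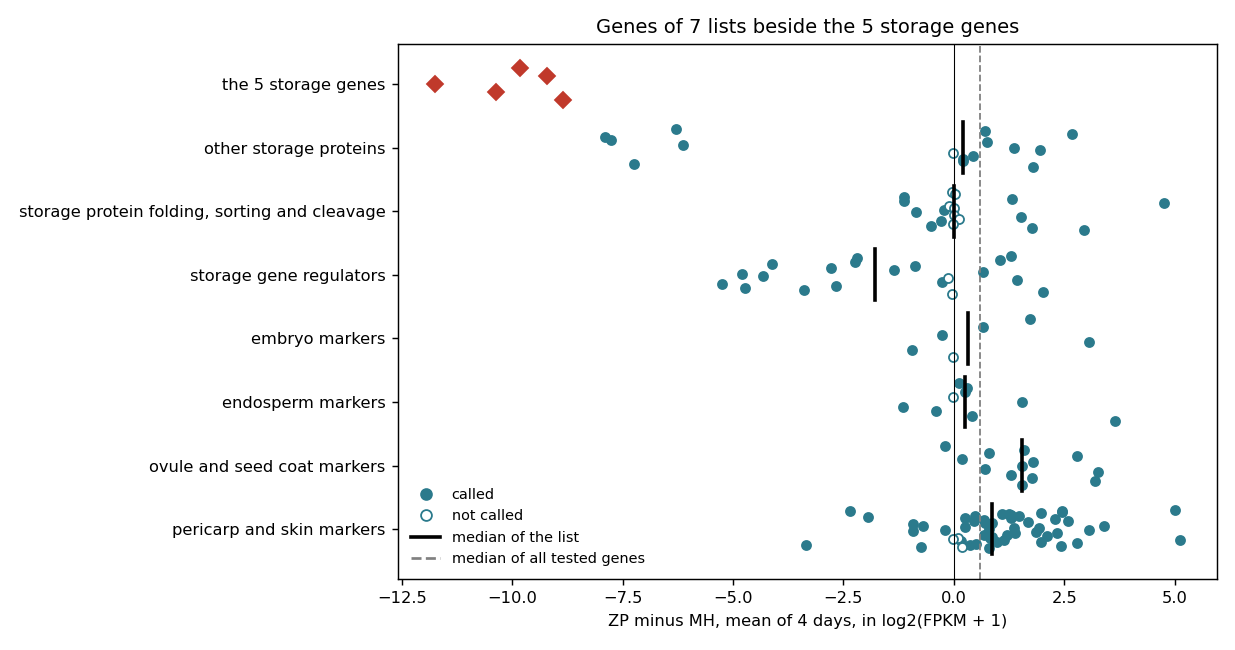
Difference between the varieties in the mean of the 4 days, in log2(FPKM + 1), for the 5 storage genes (diamonds) and for the tested genes of 7 lists (circles, filled where called); short black lines are list medians and the dashed line is the median of all tested genes. The 5 diamonds lie between -11.74 and -8.85, 5 other storage genes lie below -6, and the regulator list, which includes DOG1-like genes, has a median of -1.78.

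The genes most like the mean of the 5 members over all 16 libraries, by Pearson correlation of log2(FPKM + 1) among genes with a group mean of at least 10 FPKM, were led by LOC100266074 (r = 0.994), which codes for a lipid-transfer protein. It ranged from 1119 to 46324 FPKM in MH and from 0.0514 to 151 in ZP. The next were the aquaporin TIP3-2 (LOC100252897, r = 0.982), a channel of the vacuole membrane, a glycosyltransferase (LOC100257921, r = 0.980) and the unnamed genes LOC100853754 and LOC100265622 (both r = 0.979). For comparison each member reached 0.975 to 0.992 with the mean it is part of. The gap between the varieties enters these correlations. Over the 8 MH libraries alone the leading genes were an endochitinase (LOC100255900, r = 0.995), xyloglucan endotransglucosylase 23 (LOC100261550, r = 0.993), the uncharacterized LOC104881088 (r = 0.992), LOC100266074 (r = 0.987) and an extensin (LOC104877664, r = 0.987). Within MH 2S albumin had the lowest value of the members, 0.800, and its 2 libraries of a day differed most. The libraries of a group share their source and the members share each library's depth, so these values describe likeness only.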

How the data were processed

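Ovule RNA was read on a NovaSeq X Plus instrument, per the labels. Each library's deposited values are FPKM; the aligner, counting tool and build are not given in the sources used here. The 5 members and the 7 lists were chosen with earlier results of these data known, and the embryo list was corrected after its gene descriptions had been seen. Genes with at least 1 FPKM in 2 libraries (12637) were tested with limma 3.58.1 (R 4.3.3, variance trend) on log2(FPKM + 1), with 8 group means, 8 residual degrees of freedom and two-sided p-values adjusted over all of them in each of 12 comparisons; the call threshold was an adjusted p of 0.05. The log scale understates changes of genes with low values. Depth was estimated from the steps of low values in 2940 genes (21.9%), and its scale rests on gene spans. The main fit was tried on simulated data for the variety comparison at day 35, and the depth estimate on simulated counts. The other fits and comparisons were not. The named genes are the 5 members, the 3 most abundant of a list (some left out for length) and the 5 most alike. The replicate numbers paired the MH libraries over days (correlation over 0.1 in all 6 pairs of groups), and 5 of 6 pairs in ZP; the main fit has no block. Sequences, and the promoter and protein comparison planned, were not analysed here. Alternatives were other pseudocounts, filters, scalings and fits, and each library left out.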

Additional observations from a re-analysis of the deposited data

Results flagged for a closer look

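A difference between the varieties in the course over days was found by the interaction test for 3 of the 5 genes. These were legumin A (LOC100241281, adjusted p = 0.00207), 2S albumin (LOC100252101, adjusted p = 0.0170) and basic 7S globulin (LOC100240860, adjusted p = 0.0400), by limma. Of all tested genes 78.9% passed this test. Basic 7S globulin lost the call in 12 of 16 fits that left out a library and 2S albumin in 2, and a pseudocount of 0.1 left 1 of the 5 genes called. Without ZP replicate 2 each ZP group is 1 library, so this test is not given for that fit. In MH legumin A went from 15757 ± 2524 (SD, n = 2) FPKM at day 35 to 33406 ± 1245 at day 61, and in ZP from 9.09 ± 12.8 to 1063 ± 580. For 2S albumin the MH means were 18469 ± 4728 and 45029 ± 23717 FPKM and the ZP means 9.48 ± 13.4 and 671 ± 493. For basic 7S globulin they were 258 ± 27.2 and 19505 ± 156 FPKM in MH and 5.62 ± 7.88 and 32.8 ± 18.5 in ZP.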

How the results depend on the processing

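Of the 60 test results on the 5 genes under 27 other settings, 1456 of 1530 values kept their side of the threshold, 32 lost the call and 42 gained it. No called difference changed sign; 28 of 1405 differences did, in 16 results of the day steps that were called neither before nor after, such as CRU1 in ZP from day 35 to 45 (-2.33 to 2.94 over the leave-outs). Why calls moved was not tested beyond the settings themselves. A pseudocount of 0.1 left 1 member called in the interaction and 1 in the ZP step from day 55 to 61, where 1010 of the 12637 tested genes rose. Library sizes without the 5 genes gave 1 member called in ZP from day 45 to 55, where 1754 of the tested genes rose. Replicate differences correlated over 0.1 in 6 of 6 pairs of MH groups, 5 of 6 of ZP groups and 0 of 16 pairs between the varieties (-0.597 to 0.0826), so 1 block over both varieties joins numbers that do not pair. With that replicate block, 1 member was called in ZP from day 35 to 45 and 1 from day 45 to 55, where 4053 and 1949 of the tested genes rose. With the replicate block within each variety 4, 0 and 1 members were called in the MH steps (2929 genes from day 45 to 55), 2, 2 and 5 in the ZP steps and 5 in the interaction; it ended no member's call.

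Without ZP replicate 2, in MH 4 members were called from day 35 to 45, 1 member and 925 genes (1780 in all libraries) from day 45 to 55, and 1 member and 1601 genes (2988) from day 55 to 61. In ZP the same steps gave 2 members and 4328 genes (6974), 1 member and 2080 genes (4050), and 5 members and 1993 genes (3963). Each ZP group was then 1 library, with its spread taken from the MH groups. The interaction test of that fit is therefore not given. Fitted alone, the MH libraries gave 900 and 1530 genes in the later MH steps, and the ZP libraries 1 member in the last ZP step.

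Leaving out each library in turn, the 5 members were called in each variety comparison, with 8928 to 9867 genes at day 35, 9279 to 10104 at day 45, 9321 to 9957 at day 55, 8767 to 9589 at day 61 and 11017 to 11260 in the mean. The MH steps gave 5391 to 6877, 1325 to 1824 and 2004 to 3165 genes, with 2, 0 and 0 members. The ZP steps gave 5617 to 7190 genes and 0 to 2 members, 2792 to 4223 and 0 to 1, and 2877 to 4169 and 0 to 5. The interaction gave 9212 to 10207 genes and 1 to 4 members.

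Median-ratio scaling gave the other sign for ANR at day 61 (-0.79), GRIP68 at day 55 (-0.21), LOC100256319 at day 61 (-0.63), LOC100266006 at day 45 (-0.84) and LOC100244137 in MH from day 35 to 45 (0.34). Quantile normalization did so for LOC100263784 at day 55 (-0.15) and LOC100266006 at day 45 (-0.67). In the main fit ANR (0.06), LOC100256319 (0.21), LOC100266006 (0.05) and LOC100244137 (-0.16) were not called in these comparisons. LOC100263784 (0.46) was called. The share of calls that were higher in ZP was 75.8%, 72.7% and 74.3% at days 45, 55 and 61, and 53.2%, 53.5% and 53.1% after median-ratio scaling. It was 39.0% and 52.0% for MH from day 55 to 61, and 46.8% and 59.8% for ZP from day 45 to 55. Values of the 5 genes under 0.2 FPKM rest on at most 8 fragments.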
